A study of Homo sapiens with 2 samples.

Results

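The genes described here are MYC, its long noncoding neighbour PVT1, the paralogs MYCN and MYCL, the shared partner MAX, the MAX-binding repressors MXD1, MXI1 and MNT, and the MAX-like factor MLX. They are 9 of 59679 genes of the nuclear chromosomes in the gene table, and they were chosen by name, not by their peaks. The transcription factor RUNX2 and the NuRD complex component MTA1, which acts with histone deacetylases, were mapped by an assay that the study calls CUT&Tag, although the labels describe ligating adaptors to precipitated DNA. The cells were untreated MDA-MB-231, a triple-negative breast cancer line that is long established. There were 2 libraries, 1 with an antibody against RUNX2 and 1 with an antibody against MTA1, so no value has a replicate and no test between the antibodies was possible. The authors' peaks that lay inside a member gene or within 50 kb of it were taken, and for MYC also those within 2 Mb on either side. In all, 164 of 61700 RUNX2 peaks and 108 of 42683 MTA1 peaks were covered.

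MYC is a basic helix-loop-helix leucine zipper transcription factor that drives growth and proliferation and is among the most frequently activated oncogenes in breast cancer. It binds DNA as a dimer with MAX, at E-box sequences of the letters CACGTG. MXD1, MXI1 and MNT compete for MAX and recruit the SIN3 corepressors with histone deacetylases to the same sequences, whereas MLX pairs with the glucose-sensing factors MLXIP and MLXIPL. MYC is transcribed towards PVT1, a long noncoding RNA gene that is often gained together with it.

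Each peak carries a score from the authors' peak calling, whose scale was not stated and which was therefore read only by rank within its own list. The percentile given with a score is the share of peaks of the same list that score lower. RUNX2 scores ran from 3.0 to 108 with a median of 6.70, and MTA1 scores from 3.01 to 98.7 with a median of 7.58. The number of reads was not given, so depth is unknown, and a site without a peak may be empty or weak. Many peaks had the narrowest width of their list, which was 99 bp for 31.7% of RUNX2 peaks and 116 bp for 26.0% of MTA1 peaks. Around the members this held for 54 of the 164 RUNX2 peaks (32.9%) and for 22 of the 108 MTA1 peaks (20.4%). Coordinates are those of the lists. The submitters' processing notes name hg19, but the positions match GRCh38: within 10 Mb of each of the 9 members, the share of peaks within 1 kb of the end of a protein-coding gene was highest with the positions as given, when the peaks of either list were moved by up to 2 Mb in steps of 1 kb.

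To show the letters under the peaks, the 250 bases before the start are given for 5 starts, from RefSeq (GRCh38.p14), 5′ to 3′ on the strand of the gene. They were chosen after the peaks had been seen: the starts of MLX and MNT hold an E-box inside peaks of both lists, MXD1 has the highest-scoring start peak of both lists among the members, the first start of MXI1 holds the only RUNX letters, and MYCN has no peak within 3 kb. Capitals mark CACGTG and the RUNX letters TGTGGT or TGCGGT, searched on both strands.
MLX, chr17:42566850-42567099 (+): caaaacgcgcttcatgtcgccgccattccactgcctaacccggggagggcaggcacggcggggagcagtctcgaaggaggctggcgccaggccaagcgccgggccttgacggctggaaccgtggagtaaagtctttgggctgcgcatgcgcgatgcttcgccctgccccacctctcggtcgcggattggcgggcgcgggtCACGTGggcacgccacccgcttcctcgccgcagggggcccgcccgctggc
MNT, chr17:2401061-2401310 (-): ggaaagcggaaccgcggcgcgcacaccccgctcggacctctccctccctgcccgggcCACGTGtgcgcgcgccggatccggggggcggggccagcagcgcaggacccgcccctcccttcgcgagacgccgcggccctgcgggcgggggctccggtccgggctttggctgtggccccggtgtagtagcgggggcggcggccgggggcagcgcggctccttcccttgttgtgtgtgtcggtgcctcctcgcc
MXD1, chr2:69914859-69915108 (+): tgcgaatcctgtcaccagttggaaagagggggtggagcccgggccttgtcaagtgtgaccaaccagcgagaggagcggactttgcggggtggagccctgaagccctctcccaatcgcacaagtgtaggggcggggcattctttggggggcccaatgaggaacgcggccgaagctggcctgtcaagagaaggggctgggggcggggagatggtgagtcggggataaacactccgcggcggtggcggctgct
MXI1, first start, chr10:110207355-110207604 (+): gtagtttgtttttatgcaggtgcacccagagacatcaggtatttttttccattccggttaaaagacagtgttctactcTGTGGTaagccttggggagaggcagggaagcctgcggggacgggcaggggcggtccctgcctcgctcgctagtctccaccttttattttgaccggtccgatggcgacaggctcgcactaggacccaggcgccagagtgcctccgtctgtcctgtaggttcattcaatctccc
MYCN, chr2:15940300-15940549 (+): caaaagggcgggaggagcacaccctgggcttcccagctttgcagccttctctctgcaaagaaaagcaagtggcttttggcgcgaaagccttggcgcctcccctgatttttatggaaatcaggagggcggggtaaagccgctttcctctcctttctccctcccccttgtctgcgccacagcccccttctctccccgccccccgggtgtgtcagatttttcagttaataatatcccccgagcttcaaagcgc

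In the MLX window the E-box lay at bases -50 to -45 from the start, and in the MNT window at -193 to -188, and both sites were inside a RUNX2 peak and an MTA1 peak. The windows before all tabulated starts of MYCN, MYCL, MAX, MXD1 and MXI1 held no E-box. Among 22199 tabulated starts of protein-coding genes, 7.37% hold an E-box in such a window. The RUNX letters of MXI1 lay at -172 to -167, outside any peak, and 15.6% of the starts hold such letters. The MXD1 window lay wholly inside a peak of each list, with all 250 bases covered, and held neither motif.

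Peaks of RUNX2 were found in or within 50 kb of all 9 members, and peaks of MTA1 at 8 of them, all but MYCN. This is the usual state of a gene: 90.8% of 20037 protein-coding genes had a RUNX2 peak and 86.6% an MTA1 peak within 50 kb, and 84.9% had both, as did 8 of the 9 members. What set the members apart from each other was the number. PVT1 had 33 RUNX2 and 29 MTA1 peaks and MLX had 18 and 12, whereas MYC had 5 and 5, against a median of 5 RUNX2 and 4 MTA1 peaks for a protein-coding gene. MYCN had 1 and 0, and MYCL had 1 and 2.

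**Figure D1:**
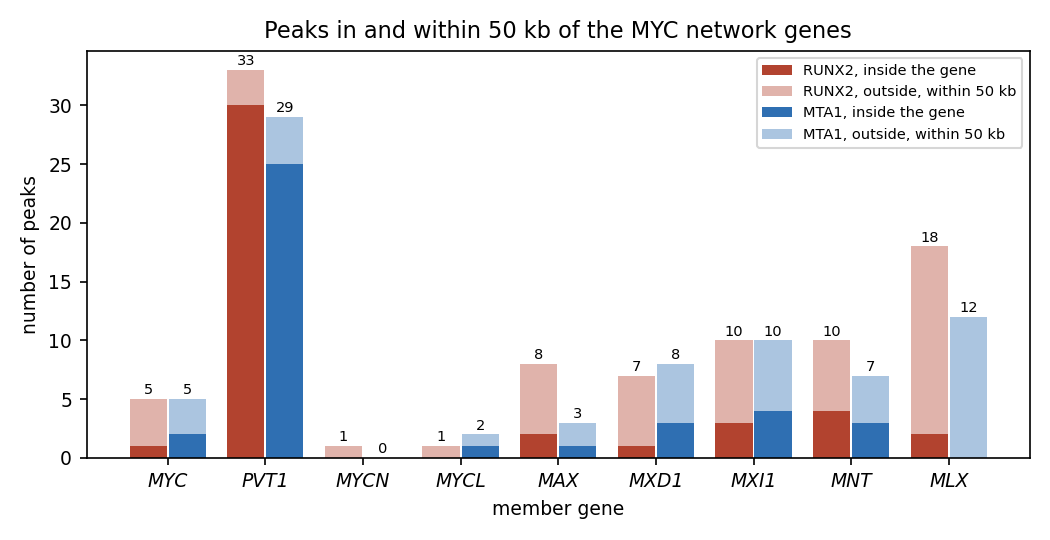
Number of RUNX2 and MTA1 peaks (vertical axis) for each member gene, with peaks inside the gene in full colour and those outside it but within 50 kb in pale colour; 1 library per antibody, so there are no error bars. PVT1 had the most peaks of both lists, 33 and 29, mostly inside the gene, and MYCN and MYCL the fewest.

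At MYC itself the peaks of both lists met at both ends of the gene. Inside MYC, near the end that faces away from PVT1, the RUNX2 peak spanned 127736054 to 127736321 on chromosome 8 and scored 6.48 (percentile 48.4). It overlapped an MTA1 peak at 127735999 to 127736317 with a score of 9.72 (percentile 63.0). Both scores were close to the middle of their lists.

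Just beyond the end of MYC that faces PVT1 lay the strongest peaks within 50 kb. The RUNX2 peak at 127743084 to 127743268, 133 bp from the gene, scored 17.5 (percentile 84.4). The MTA1 peak at 127743048 to 127743283, 97 bp from the gene, scored 18.5 (percentile 85.7). The other peaks near MYC were weaker and unshared: MTA1 peaks scored 4.12 and 6.16 at and before the far end and 5.33 between MYC and PVT1, and RUNX2 peaks scored 6.40, 3.30 and 4.33. By number MYC was an ordinary gene, with more RUNX2 peaks than 43.9% and more MTA1 peaks than 56.8% of protein-coding genes. The 3 protein-coding genes nearest to it in 4 values, the percentiles of the best score and of the number of peaks in each list, were ERN2, POLR2K and NUTF2P4, at distances of 1.08, 1.28 and 1.4 percentile points. Each had 5 peaks of either list, a value that entered the choice.

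PVT1 held more peaks of both lists than any other member. Per 100 kb of gene and flanks it had 8.11 RUNX2 and 7.13 MTA1 peaks, fewer than the short gene MLX with 17.0 and 11.3. Inside the gene, which spans 307 kb, lay 30 RUNX2 and 25 MTA1 peaks. Of 1264 other genes within 1.5-fold of its length, the median held 4 RUNX2 and 2 MTA1 peaks, and 4 held as many RUNX2 peaks and 2 as many MTA1 peaks as PVT1. With 50 kb added on either side, its counts of 33 and 29 were reached by 28 and 6 protein-coding genes of any length. The ends of PVT1 were nearly bare, with no RUNX2 peak within 3 kb of either. There were 2 MTA1 peaks there, which scored 3.32 (percentile 1.82) and 4.28 (percentile 9.01). The strong peaks were thus inside the gene and beyond its far end.

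The highest MTA1 score in PVT1, 32.6 (percentile 96.2), belonged to the peak at 127854042 to 127854666, 111 kb from MYC. A RUNX2 peak with a score of 22.5 (percentile 89.4) overlapped it. The highest RUNX2 score inside PVT1, 32.4 (percentile 94.9), was at 127889989 to 127890262, 147 kb from MYC, over an MTA1 peak that scored 11.8. Both lists ranked high at 127949673 to 127950332, 207 kb from MYC, where the RUNX2 peak scored 29.8 (percentile 93.9) and its MTA1 partner 28.8 (percentile 94.8).

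Within PVT1 the part farthest from MYC held the fewest peaks of both lists, and the best MTA1 score was lower there. Of 3 equal parts of the gene, the one nearest MYC held 11 RUNX2 and 11 MTA1 peaks, the middle one 13 and 10, and the far one 6 and 4. The best RUNX2 score was 32.4, 29.8 and 25.4 in these parts, and the best MTA1 score was 32.6, 28.8 and 8.69. Beyond the far end, at 128108983 to 128109279, the RUNX2 score of 39.6 (percentile 96.9) was again matched by a high MTA1 score of 25.0 (percentile 92.4).

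Not every strong site in PVT1 was shared. The strongest RUNX2 peak without an MTA1 partner within 50 kb of any member was inside PVT1, at 127911273 to 127911721, with a score of 21.4 (percentile 88.4). The nearest MTA1 peak was 3037 bp away. Of RUNX2 peaks in the same score decile, 19.2% had no MTA1 partner, so such a site is not rare in the list. It was chosen after its values were seen.

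**Figure D2:**
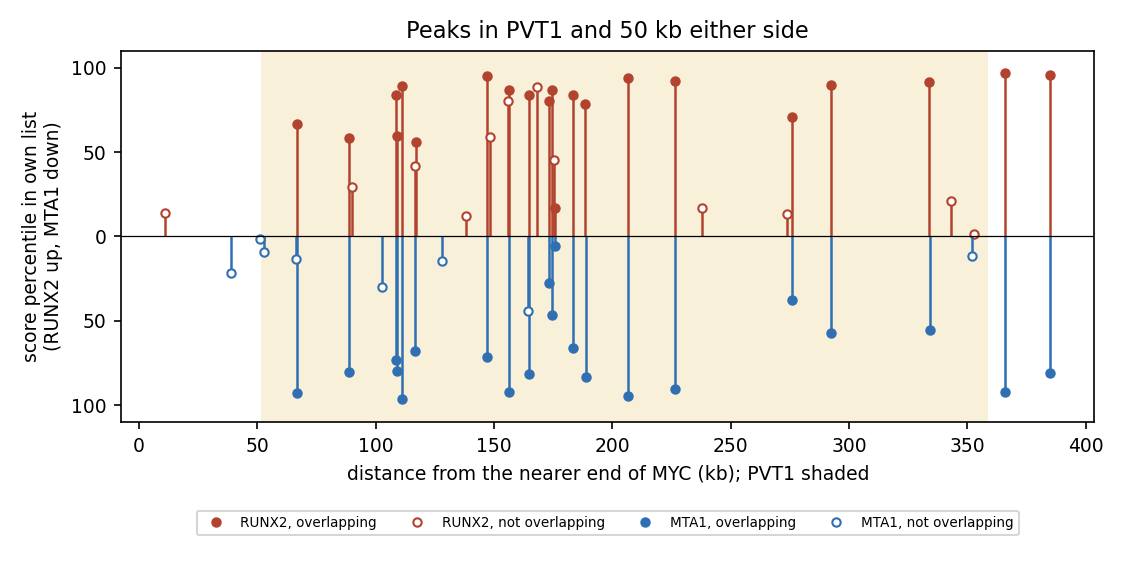
Peaks in PVT1 (shaded) and 50 kb on either side by distance from the nearer end of MYC in kb (horizontal axis), with the score percentile in the own list drawn upwards for RUNX2 and downwards for MTA1. Filled points overlap a peak of the other list; 21 peaks of each list did so. Many high points of both lists face each other, but ranks often differ and some high RUNX2 points have no partner. Over the 21 pairs Spearman rho was 0.352, against 0.464 over the whole lists. In the 3 overlapping pairs of the far part of the gene the MTA1 percentile is the lower.

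Seen over 2 Mb on either side, the peaks were unevenly spread about MYC. The window held 109 RUNX2 and 66 MTA1 peaks, or 27.2 and 16.5 per Mb, against means of 19.7 and 13.6 per Mb over 759 windows of 4 Mb. Of these windows 73.0% held fewer RUNX2 and 68.1% fewer MTA1 peaks, so the window as a whole was not far from the usual. Of the RUNX2 peaks 82 (75.2%) lay on the PVT1 side, 26 on the side away from it and 1 in MYC. Of the MTA1 peaks 51 (77.3%) lay on the PVT1 side, 13 away from it and 2 in MYC.

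In 40 bins of 100 kb the median was 2 RUNX2 peaks and 1 MTA1 peak, and 7 bins had no peak of either list. The bin from 100 to 200 kb on the PVT1 side, which is wholly within PVT1, held 18 RUNX2 and 15 MTA1 peaks. By the sum of both lists the next most filled bins were its neighbours, with 6 and 8 peaks from 0 to 100 kb and 6 and 4 from 200 to 300 kb. By RUNX2 alone the bin from 800 to 900 kb came second, with 7 peaks. On the side away from PVT1 no site near MYC was shared. Within 400 kb that side held 7 RUNX2 peaks with scores up to 6.77 and 3 MTA1 peaks with scores up to 13.3, and 0 of them overlapped the other list. Over the whole lists, without regard to score, 45.4% of RUNX2 and 65.5% of MTA1 peaks overlapped. These 7 RUNX2 peaks ranked at percentile 50.7 or lower, and the part of low scores in the lack of overlap was not tested. The stretch of 400 kb includes CCAT2, POU5F1B and parts of CASC8 and CASC21, genes of the region known for inherited cancer risk. CASC8 and CASC21 reach farther, and 440 kb from MYC a RUNX2 peak inside both (score 5.75) overlapped an MTA1 peak (score 9.06).

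The highest scores of the window were beyond PVT1. The strongest 2 peaks of both lists were the same sites, inside LOC124902020, an uncharacterised long noncoding RNA gene. At 128176636 to 128177296, 434 kb from MYC, the RUNX2 peak scored 64.1 (percentile 99.5) and the MTA1 peak at 128176686 to 128177220 scored 36.2 (percentile 97.3). At 128183173 to 128183546, 440 kb from MYC, the RUNX2 peak scored 60.4 (percentile 99.4) and the MTA1 peak at 128183205 to 128183547 scored 43.5 (percentile 98.6). MYC was the nearest protein-coding gene to both.

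Elsewhere in the window high RUNX2 peaks also met weaker MTA1 peaks. The third highest RUNX2 score, 40.9 (percentile 97.2), was inside CCDC26, a long noncoding RNA gene, 1884 kb from MYC, over an MTA1 peak at percentile 74.9. The fifth, 37.2 (percentile 96.4), lay outside any annotated gene 1158 kb from MYC, and its MTA1 partner scored 5.15 (percentile 19.2). Among the MTA1 peaks, the third to the fifth by score all lay in PVT1, with 32.6, 28.8 and 25.5, the last at 127809726 to 127810488 with a RUNX2 partner of 9.48. On the side away from PVT1 the best RUNX2 score was 24.3, in PCAT2 and PRNCR1, with an MTA1 partner of 11.2. There the best MTA1 score was 25.2 (percentile 92.6), in LOC105375751 and LOC105375753, with a RUNX2 partner of 9.80.

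**Figure D3:**
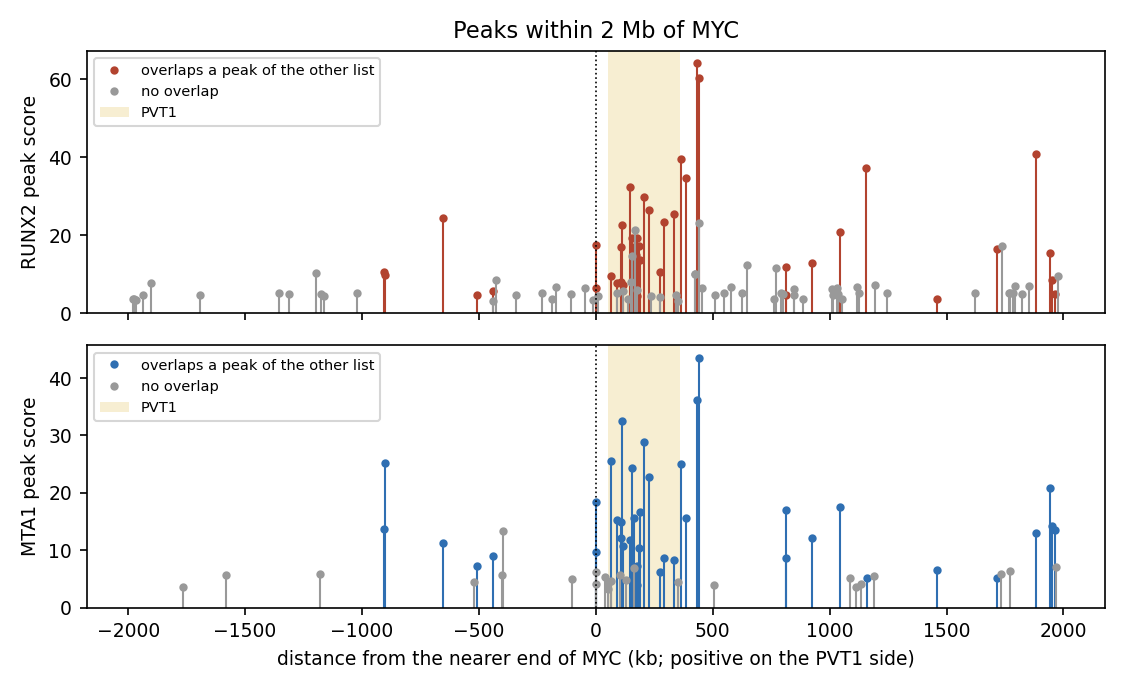
Score of each RUNX2 peak (upper panel) and MTA1 peak (lower panel) within 2 Mb of MYC against its distance from the nearer end of MYC in kb, positive on the PVT1 side, with PVT1 shaded. Coloured points overlap a peak of the other list and grey points do not. The 2 highest points of both panels, 64.1 and 60.4 for RUNX2 and 36.2 and 43.5 for MTA1, stand beyond PVT1, and the stretch before MYC holds mostly low grey points.

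The paralogs of MYC were almost free of peaks. MYCN, which is active mainly in neural tissue and amplified in neuroblastoma, had a single RUNX2 peak of the narrowest width 42773 bp beyond the gene (score 5.22, percentile 29.3) and no MTA1 peak within 50 kb. At MYCL, known from small cell lung cancer, 2 weak MTA1 peaks lay at the start, at chromosome 1, 39901404 to 39901545 (score 6.39, percentile 39.1) and 39902014 to 39902129 (score 3.38, percentile 1.87). The only RUNX2 peak, of the narrowest width, lay in MYCL-AS1 (score 3.67, percentile 6.85). No peak at either paralog overlapped the other list, as against 45.4% of RUNX2 and 65.5% of MTA1 peaks that did so over the whole lists. These peaks were few and ranked at percentile 39.1 or lower, and MYCN had no MTA1 peak to overlap.

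At their starts MYCL had MTA1 peaks only and MYCN had none, whereas the other members off chromosome 8 had peaks of both lists. For the 7 members off chromosome 8 the RefSeq table gives starts and strand. A RUNX2 peak lay within 3 kb of a start in 5 of these 7, an MTA1 peak in 6, and peaks of both in 5 (MAX, MXD1, MXI1, MNT and MLX). MYCN alone had neither. Over 15843 protein-coding genes with a tabulated start the shares were 58.3% for RUNX2, 59.0% for MTA1, 51.7% for both and 34.4% for neither, so the number of members with peaks was near the background. At MYC and PVT1 either end was used, where 59.9% and 59.1% of protein-coding genes have a RUNX2 or MTA1 peak, and MYC had both while PVT1 had MTA1 only.

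MAX, the obligate partner of MYC, had 1 strong peak of each list at its start. The RUNX2 peak at chromosome 14, 65102507 to 65103001 scored 20.3 (percentile 87.5), and the MTA1 peak at 65102485 to 65103112 scored 28.8 (percentile 94.7). Their centres lay at -471 and -515 bp from the outermost tabulated start. Both peaks still overlapped the RefSeq span of MAX, which reaches beyond that start. The remaining 7 RUNX2 peaks within 50 kb scored between 3.0 and 9.80, and 5 of the 8 had the narrowest width. All 3 MTA1 peaks overlapped a RUNX2 peak, as did 65.5% of the whole MTA1 list.

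MXD1, a repressor that rises as cells stop dividing, had the highest start peaks of all members. The MTA1 peak at chromosome 2, 69914505 to 69915125 scored 47.6 (percentile 99.1), and the RUNX2 peak at 69914537 to 69915211 scored 27.8 (percentile 92.9). Both peaks contained the start itself and the 250 bases printed above. Elsewhere within 50 kb the peaks were weaker, up to 12.3 for RUNX2 and 8.61 for MTA1, at the same site 3.6 kb past the gene, inside ASPRV1.

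At MXI1, a repressor of the same family, the lists parted. It has 3 tabulated starts. At the first start lay a RUNX2 peak of the narrowest width and low score (3.30, percentile 3.10) and no MTA1 peak within 3 kb. An MTA1 peak at chromosome 10, 110211165 to 110211399, its centre 1051 bp past the second start, scored 25.0 (percentile 92.5) and had no RUNX2 partner, the nearest RUNX2 peak being 3491 bp away. This is uncommon: of MTA1 peaks in the highest score decile, 0.891% had no RUNX2 partner. The site was chosen after its values were seen.

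Further into MXI1 the lists overlapped with unequal ranks. The highest MTA1 score of the gene, 25.4 (percentile 92.8) at 110221881 to 110222099, met a RUNX2 score of 5.05 (percentile 26.9). Just before the third start the MTA1 peak was at percentile 87.6 and the RUNX2 peak, with a score of 7.41, at percentile 56.5. The order was reversed past the gene, where the RUNX2 peak at 110326519 to 110326950 scored 20.9 (percentile 88.0) and its MTA1 partner 7.60 (percentile 50.1).

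MNT, a widely expressed MAX-binding repressor, had strong peaks of both lists along the gene. Upstream of its start, over the E-box printed above, the RUNX2 peak at chromosome 17, 2401077 to 2401842 scored 18.8 (percentile 85.9) and the MTA1 peak at 2401088 to 2401865 scored 27.6 (percentile 94.1). Inside the gene a pair of peaks about 4 kb past the start scored 27.3 for RUNX2 and 22.8 for MTA1, and another pair about 8 kb past it scored 17.9 in both lists. All 7 MTA1 peaks within 50 kb overlapped a RUNX2 peak, and 7 of 10 RUNX2 peaks overlapped an MTA1 peak. Over the whole lists 65.5% of MTA1 and 45.4% of RUNX2 peaks overlapped. The MTA1 peaks around MNT had a median percentile of 87.8, and of MTA1 peaks in the highest score decile only 0.891% had no RUNX2 partner. None of the peaks around MNT had the narrowest width. The highest RUNX2 score around MNT, 49.9 (percentile 98.5) at 2359266 to 2360066, was 24 kb past its end, inside SGSM2, over an MTA1 peak of 26.5 (percentile 93.5).

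MLX stood in a stretch rich in peaks but had weak peaks of its own. At its start the RUNX2 peak at chromosome 17, 42566990 to 42567111 scored 5.59 (percentile 41.4) and the MTA1 peak at 42566897 to 42567096 scored 7.81 (percentile 52.1). These lie over the E-box printed above. Of its 18 RUNX2 peaks 16, and of its 12 MTA1 peaks all, were outside the gene. The best RUNX2 scores were 39.5 (percentile 96.9), at RETREG3 and TUBG1, and 39.4 (percentile 96.9), in ATP6V0A1, with MTA1 partners of 19.8 and 17.3.

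**Figure D4:**
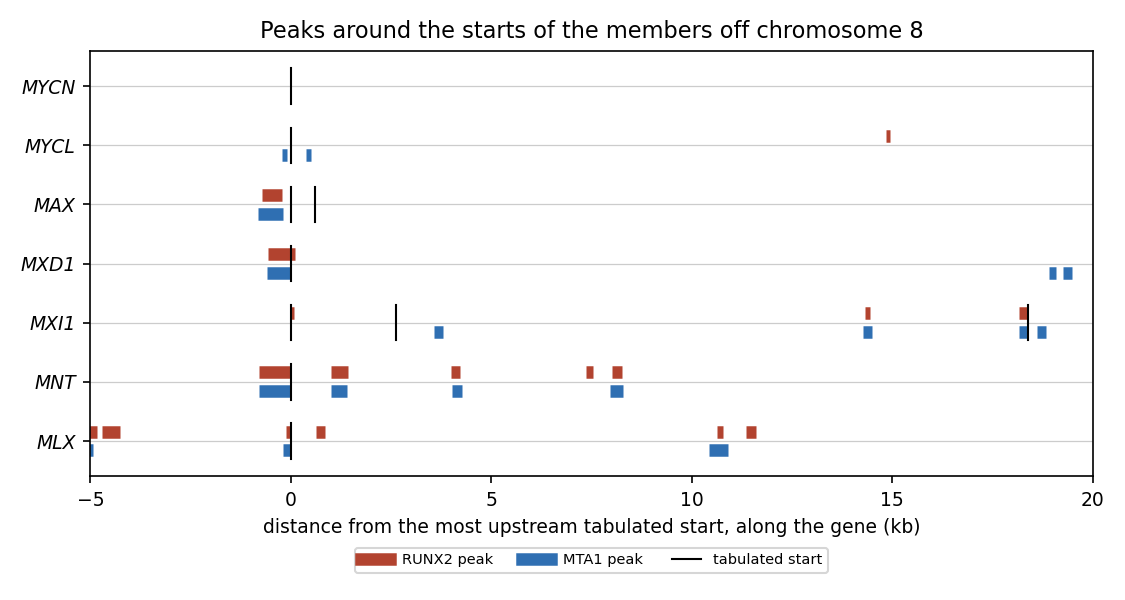
Peaks of RUNX2 (upper bars) and MTA1 (lower bars) from 5 kb before to 20 kb past the most upstream tabulated start of the 7 members off chromosome 8, along the direction of the gene in kb; bars are drawn to the width of the peak and black lines mark the starts. MAX, MXD1, MNT and MLX have bars of both lists at the first start, MXI1 has both only further in, MYCL has MTA1 at its start and a RUNX2 bar almost 15 kb past it, and MYCN has none.

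The lists met about as often around the members as peaks of like score did elsewhere, overlap being 1 bp or more. Of the 92 RUNX2 peaks in or within 50 kb of the 9 members, 54 had an MTA1 partner, or 58.7% (exact 95% interval 47.9% to 68.9%, counting error over peaks only). Over the whole RUNX2 list, peaks of the same score deciles overlapped in 52.0%. For MTA1 it was 54 of 75, or 72.0% (60.4% to 81.8%), against 73.1%. Both intervals include the value at the same score deciles. Without regard to score, 45.4% of the whole RUNX2 list and 65.5% of the whole MTA1 list overlapped. The RUNX2 value lies below its interval and the MTA1 value inside. In PVT1 with 50 kb the shares were 63.6% (45.1% to 79.6%) and 72.4% (52.8% to 87.3%), against 59.4% and 70.6%.

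Over the whole 2 Mb around MYC the share was 37.6% for RUNX2 (28.5% to 47.4%), against 45.1%. For MTA1 it was 62.1% (49.3% to 73.8%), against 66.7%, and again both intervals include the value at the same score deciles. A lower share was seen outside PVT1. Without PVT1 and its 50 kb, 20 of 76 RUNX2 peaks overlapped an MTA1 peak, or 26.3% (16.9% to 37.7%), against 38.9% at the same score deciles of the list, which lies just outside the interval. For the 37 MTA1 peaks there it was 54.1% (36.9% to 70.5%), against 63.6%, inside the interval. Of all the sets examined, which share peaks, only the RUNX2 interval outside PVT1 left out its value. These RUNX2 peaks had a median percentile of 29.3, and 46.1% had the narrowest width, against a median percentile of 78.5 and 15.2% in PVT1. The part of narrow peaks in the lower overlap was not tested.

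Across the 72 overlapping pairs around all members RUNX2 and MTA1 score percentiles were related with a Spearman rho of 0.472, a description over sites that share their libraries. The MTA1 percentile was the higher in 35 pairs and the RUNX2 percentile in 37. Over the 27997 pairs of the whole lists rho was 0.464, with the MTA1 percentile higher in 12120 and the RUNX2 percentile in 15877, so the relation around the members was close to that of the lists.

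**Figure D5:**
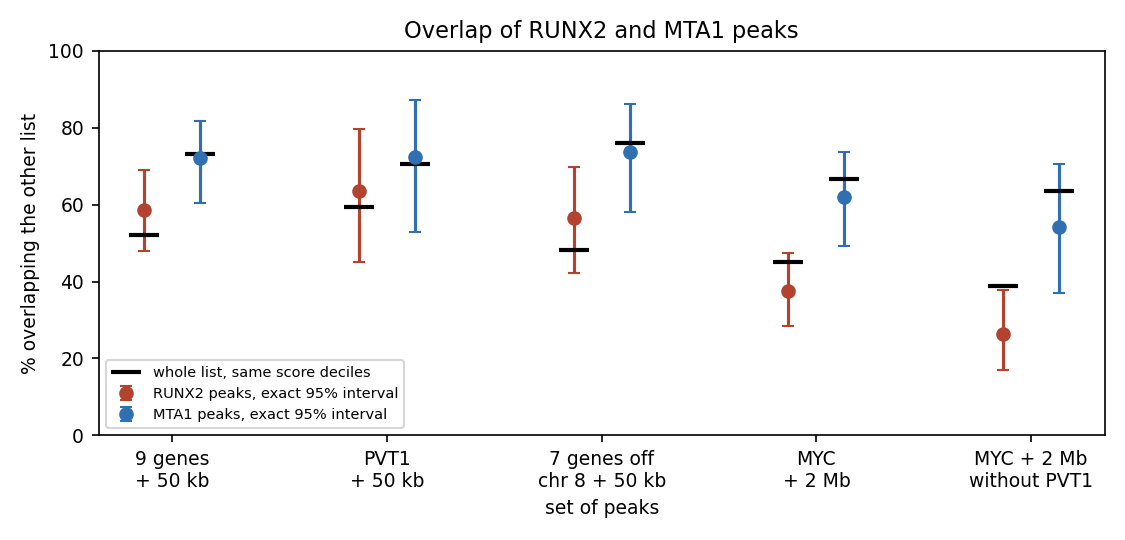
Share of RUNX2 and MTA1 peaks that overlap a peak of the other list, in percent, for 5 sets of peaks, with exact 95% binomial intervals; black bars give the share over the whole list at the same score deciles. The black bar lies outside the interval only for RUNX2 peaks within 2 Mb of MYC without PVT1, at 38.9% against 26.3%.

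The same start measure was applied to lists of genes that work with MYC. TRRAP, BPTF, ZBTB17, AURKA, CCND2, SHMT2 and MYOD1 have no tabulated start, so either end was used. Among 5 further factors of the MAX and MLX network, 4 had peaks of both lists at the start, as did 51.7% of protein-coding genes. The highest scores were at MXD4 (percentile 93.6 for RUNX2 and 95.3 for MTA1) and MXD3 (87.8 and 83.1), repressors of the MXD family. MLXIPL, the carbohydrate-responsive partner of MLX, had no peak of either list.

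Of 15 cofactors and regulators of MYC, RUNX2 peaks were found at 14 and MTA1 peaks at 13. At 12 there were both, and at 0 neither. Of protein-coding genes with a tabulated start, 51.7% had both and 34.4% neither. TRRAP, BPTF, ZBTB17 and AURKA were measured at either end, a wider target for which no share of both or neither is given. The highest RUNX2 scores were at AURKA, a mitotic kinase that stabilises MYC family proteins (54.5), and SIN3A, the corepressor recruited by MXD proteins (46.8). AURKA was measured at either end, so its peak may not lie at its start. The highest MTA1 scores were at SKP2, a ubiquitin ligase subunit that acts on MYC (59.5, percentile 99.7), and RUVBL2, an ATPase of the complexes that MYC recruits (47.7, percentile 99.1). TRRAP and SIN3B had no MTA1 peak and WDR5 had no RUNX2 peak, named here after their values were seen.

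Of 15 textbook MYC target genes, 11 had a RUNX2 peak and 13 an MTA1 peak, with both at 11. CDK4, a kinase of the G1 phase, scored 38.1 for RUNX2 and 43.6 for MTA1, and PA2G4, a growth regulator, scored 30.5 and 63.3. CCND2 and TERT had no peak of either list. Of 5 genes of other lineages, MYOD1, ALB and CDX2 had no peak, NEUROD1 had a RUNX2 peak of score 3.67 and INS an MTA1 peak of score 4.99. Over protein-coding genes the shares at a start were 58.3% for RUNX2, 59.0% for MTA1, 51.7% for both and 34.4% for neither. At either end they were 59.9% for RUNX2 and 59.1% for MTA1, and no share of both or neither is given there. Beside these shares the counts of all 4 lists are a description of short lists and were not tested.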

How the data were processed

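CUT&Tag libraries of MDA-MB-231 cells were made by the study, 1 per antibody. The labels and the study's methods name different antibody suppliers, and the labels describe adaptor ligation of precipitated DNA, so the preparation is uncertain. Per the labels, the submitters' processing notes name CASAVA 1.4, Bowtie 0.12.8, MACS, MACS2 and hg19, with no role given. The peak threshold and any control library are not given in the sources used here. The authors deposited 1 peak list per library, with position and a score of unstated scale, used only by rank within its list.

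Positions were made 1-based, and mitochondrial peaks were left out. Genes and starts came from RefSeq tables of GRCh38.p14, which give spans but no exons, so exon or intron is not stated. The tables used here hold no start for MYC, PVT1 and 7 of the listed genes, for which either end was used. Overlap meant at least 1 bp. The 95% intervals of shares are exact (Clopper-Pearson). Deciles of score were computed separately per list. No p-value was computed. The counting and overlap steps were tested on simulated data in which 30% of peaks had a planted partner. Computation used scipy 1.17.1, pandas 2.3.3 and numpy 2.4.6 under Python 3.11.15. Plots were drawn in matplotlib 3.10.9.

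The members and lists were chosen with earlier results of these data known. Named were all members, the highest-scoring peak of each list within 50 kb and the peak nearest the start, the 5 highest-scoring peaks and 3 fullest bins within 2 Mb of MYC, the 3 genes most like MYC, and of each gene list those with no peak and the 2 with the highest score. Alternatives kept the upper part of each list from its median score on, kept its top 10000 peaks, used no peaks of the narrowest width, merged peaks within 500 bp, or changed the windows and overlap rules.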

Additional observations from a re-analysis of the deposited data

How the results depend on the processing

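Counts and shares were recomputed under each other setting, and counts fell with a stricter set of peaks or a narrower window by construction. With scores from the median upwards, the members with 50 kb held 54 RUNX2 and 47 MTA1 peaks and the 2 Mb around MYC 53 and 34. Overlap rose to 72.2% for RUNX2 and 83.0% for MTA1 around the members, and to 54.7% and 85.3% around MYC. With only the top 10000 peaks per list, the counts were 23 and 26 around the members and 21 and 21 around MYC, and overlap went up for RUNX2, from 58.7% to 69.6% around the members and from 37.6% to 47.6% around MYC. For MTA1 it went down, from 72.0% to 61.5% and from 62.1% to 47.6%. A RUNX2 partner below the cut no longer counted. In the full lists every MTA1 peak kept around MYC had a RUNX2 partner. The MTA1 peak of score 25.2, for example, had a partner at percentile 67.8. Around the members the cause was not tested. MTA1 peaks then lay at 5 members and 8 cofactors, RUNX2 peaks at 2 of the further factors and 6 targets, and 0 of the lineage genes had a peak of either list. Without the narrowest peaks 69 RUNX2 peaks remained around MYC, and the overlap was 69.4% of RUNX2 peaks around the members and 55.1% and 77.6% around MYC. Within 10 kb of the members lay 53 RUNX2 peaks. Within 1 Mb of MYC lay 71 RUNX2 peaks, and within 500 kb 51 RUNX2 and 39 MTA1 peaks. Within 1 kb of a start, 0 lineage genes had an MTA1 peak. Of 108 recomputed counts for single members 57 stayed within 1.5-fold, 73 were lower, 17 higher and 9 fell to 0. No paired analysis was possible because each antibody has 1 library. The unknown depth limits the low scores most: whether a site of either list is empty in the other was not detectable.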
